A study of Mus musculus with 6 samples.

Results

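Csf1r, Adgre1, Lyz2, Cd68, Maf, Fcgr1, Marco, Sirpa and Mrc1, a set of macrophage receptors and identity genes together with the transcription factor gene Maf, were described in RNA from mouse splenic CD8+ T cells. The 9 genes were chosen by name, with earlier results of these data known. They were 9 of the 28773 gene IDs listed, and all 9 were among the 12444 genes tested. Tumor-bearing female mice received microwave ablation (MWA) of the primary tumor on day 10. MWA+PBS mice were then injected with PBS, and MWA+2DG mice with 2-deoxy-D-glucose (2DG), a glucose analogue that blocks glycolysis, dissolved in PBS. Intraperitoneal injections (500 mg/kg for 2DG) began on day 10, were repeated at intervals of 2 days and ended by day 30, and splenic cells were taken on day 35. CD8+ T cells were separated from the spleen suspension, after lysis of red blood cells, with a mouse CD8+ T cell isolation kit. Each group had 3 samples, with MWA+PBS samples numbered 1 to 3 and MWA+2DG samples 4 to 6. All 6 samples came from mice that had carried a tumor and had it ablated. Wild-type mice were 6 weeks old, whether BALB/c or C57BL/6, but which strain and tumor model gave these samples, and whether each sample was a separate mouse, are not stated, so p-values measure only the spread between these samples.

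Macrophages of the spleen clear aged red blood cells in the red pulp and filter particles in the marginal zone. They depend on signals through the CSF1 receptor, carry F4/80, Fc and scavenger receptors on their surface, and hold lysozyme and CD68 in their lysosomes. The transcription factor c-Maf takes part in macrophage differentiation and is also made by some T cells, where it helps to switch on cytokine and coinhibitory receptor genes. None of the surface receptors is a defining gene of a CD8+ T cell.

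In the RNA of cells labelled as CD8+ T cells, 8 of the 9 genes were lower after 2DG and Lyz2 alone was higher, though not when FPKM was scaled to T lineage genes. The falls ran from 3.22-fold for Marco to 7.54-fold for Mrc1 in mean FPKM, the number of sequenced fragments per length of transcript and per size of the library. Log2 fold changes (log2FC, MWA+2DG minus MWA+PBS) were tested by limma on log2(FPKM + 1), with the Benjamini-Hochberg adjustment over all 12444 genes. At an adjusted p under 0.05, 17.1% of all tested genes were lower in MWA+2DG and 22.3% were higher. With a log2FC below -1 as well, 8 of the 9 passed, against 3.84% of all tested genes. This is a description, since the 9 were chosen with earlier results known. The median log2FC was -2.21 over the 9 genes and 0.05 over all tested genes. For each of the 9, the 3 samples of one group did not overlap the 3 of the other. Of all tested genes, 21.9% had every MWA+2DG sample below every MWA+PBS sample and 30.2% had every MWA+2DG sample above. With FPKM scaled to 14 T lineage genes, 8 were lower and 0 were higher, the split over all genes went to 8115 lower and 519 higher from 2134 and 2773, and the median over all genes went to -0.36. Values below are from FPKM as deposited, and the scaling is named where it ended or turned a call. In bulk RNA, fewer cells of a type and less RNA per cell cannot be told apart.

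**Figure D1:**
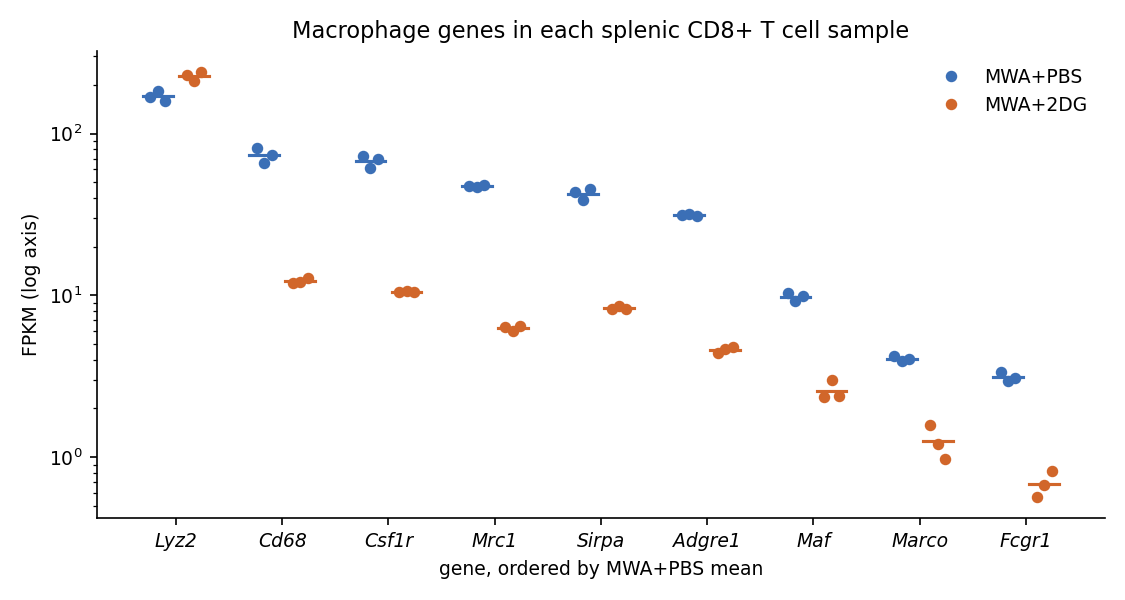
FPKM of each of the 9 genes in each sample, on a log axis, with genes ordered by their MWA+PBS mean. Points are samples (3 MWA+PBS, 3 MWA+2DG) and short lines are group means. The MWA+2DG points sit below the MWA+PBS points for 8 genes, and above them for Lyz2 only (FPKM as deposited, not scaled to T lineage genes).

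Promoter sequences are shown for the gene that fell most, Mrc1, for the lysosomal gene Cd68, which also fell, and for Lyz2, which did not. They were taken from RefSeq on build GRCm38.p6 and run 5′ to 3′ on the gene's strand, with 250 bases before the start and 50 bases after it. Mrc1 lies at chr2:14229164-14229463 on the plus strand, Cd68 at chr11:69666121-69666420 on the minus strand and Lyz2 at chr10:117282223-117282522 on the minus strand. Capitals mark matches, on either strand, to GAGGAA (the core of PU.1-type ETS sites), TGCTGA (a MAF half-site), TTNNGCAA (C/EBP) and TGANTCA (AP-1).
Mrc1: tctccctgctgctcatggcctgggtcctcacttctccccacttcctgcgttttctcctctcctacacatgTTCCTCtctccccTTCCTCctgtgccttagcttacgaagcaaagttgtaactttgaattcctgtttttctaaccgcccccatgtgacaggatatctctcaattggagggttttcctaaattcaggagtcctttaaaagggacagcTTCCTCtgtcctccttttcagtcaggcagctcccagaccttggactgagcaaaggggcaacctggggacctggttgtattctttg
Cd68: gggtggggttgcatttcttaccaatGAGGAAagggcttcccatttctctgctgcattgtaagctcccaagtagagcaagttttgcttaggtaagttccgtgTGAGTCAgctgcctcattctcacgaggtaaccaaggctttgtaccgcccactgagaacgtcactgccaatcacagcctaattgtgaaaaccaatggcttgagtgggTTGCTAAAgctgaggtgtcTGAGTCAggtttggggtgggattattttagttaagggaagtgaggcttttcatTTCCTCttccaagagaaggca
Lyz2: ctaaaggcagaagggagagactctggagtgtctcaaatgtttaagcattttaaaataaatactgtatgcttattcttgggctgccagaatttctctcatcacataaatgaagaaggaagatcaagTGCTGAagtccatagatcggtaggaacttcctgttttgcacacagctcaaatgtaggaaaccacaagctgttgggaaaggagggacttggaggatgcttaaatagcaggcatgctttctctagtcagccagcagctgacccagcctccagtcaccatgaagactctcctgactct
Mrc1 had 3 matches to GAGGAA, starting 180, 167 and 35 bases before the start. Cd68 had 2 matches to GAGGAA, 1 to TTNNGCAA and 2 to TGANTCA. The Lyz2 promoter had 1 match to TGCTGA, 125 bases before the start, and none of the letters of the other motifs. Marco and Fcgr1 each had 1 match to GAGGAA and 0 to the other motifs. Of 32851 mouse promoters of the same length, 28.3% held GAGGAA, 19.5% TGCTGA, 10.8% TTNNGCAA and 7.81% TGANTCA. Promoters of 5 of the 9 genes were matched in the table, and Csf1r, Adgre1, Maf and Sirpa were not.

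Csf1r encodes the receptor for CSF1 and IL-34, on which macrophage survival depends. Csf1r (ENSMUSG00000024621) was 72.77, 61.38 and 69.41 FPKM in MWA+PBS and 10.48, 10.66 and 10.52 FPKM in MWA+2DG. The MWA+2DG samples lay within a narrow band far below the lowest MWA+PBS sample. The means were 67.9 ± 5.85 and 10.6 ± 0.0945 FPKM (SD, n = 3 each), a log2FC of -2.57 (SE 0.0695, limma adjusted p = 4.79e-07). Every MWA+PBS sample was between 5.76 and 6.94 times every MWA+2DG sample. Ranked by mean FPKM over all listed genes, Csf1r went from rank 476 to rank 4335. In GENCODE M21, exons of Csf1r share bases with the gene Hmgxb3 on the opposite strand, whose mean was 5.19 FPKM in MWA+PBS against 5.14 FPKM after 2DG. Whether strand entered the quantification is not stated.

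Of the 12 listed genes of the CSF receptor family with its ligands and adaptors, 10 were tested, 6 were lower and 0 were higher, with a median log2FC of -0.76, and all 10 were lower with T lineage scaling. Of the 6, Il3ra passed the filter of a mean FPKM of at least 1 only through its MWA+PBS level, at 1.82 against 0.753 FPKM. Tyrobp, the DAP12 adaptor that couples myeloid receptors to kinases, fell from 43.5 ± 2.91 to 16.9 ± 2.93 FPKM. Plcg2, a phospholipase used by myeloid and B cell receptors, fell from 14.9 ± 1.54 to 6.53 ± 0.347 FPKM. Cbl, a ubiquitin ligase that ends CSF1R signaling and also acts in T cells, had a log2FC of 0.08 (limma adjusted p = 0.31), and Inpp5d, the phosphatase SHIP1, one of -0.10 (limma adjusted p = 0.23). The ligand gene Csf1 was at 1.82 ± 0.281 and 1.42 ± 0.165 FPKM, with a limma adjusted p of 0.15. Csf3r, the G-CSF receptor of neutrophils, was at 8.91 ± 1.01 and 10.3 ± 0.121 FPKM (limma adjusted p = 0.10). Il34 and Trem2 were under the filter.

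Adgre1 encodes F4/80, the adhesion receptor used to recognize mouse macrophages. Adgre1 (ENSMUSG00000004730) was 31.32, 31.68 and 31.11 FPKM in MWA+PBS and 4.37, 4.64 and 4.80 FPKM in MWA+2DG. Samples within a group differed by under 1 FPKM while the groups lay far apart. The log2FC was -2.53 (SE 0.0544, limma adjusted p = 1.87e-07), and the mean was 6.81-fold lower after 2DG. Of the other EGF-TM7 adhesion receptor genes, Adgre4, an F4/80-like receptor of myeloid cells, fell from 22.0 ± 0.426 to 3.51 ± 0.407 FPKM. Adgre5 encodes CD97, which T cells also carry, and was at 157.8 ± 3.39 and 174.8 ± 11.0 FPKM, a log2FC of 0.15 that did not pass (limma adjusted p = 0.098) and that was -0.33 (limma adjusted p = 0.000877) with T lineage scaling and 0.19 (limma adjusted p = 0.0428) with each sample scaled to the same total, as in TPM.

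Cd68 encodes a heavily glycosylated lysosomal protein of macrophages. Cd68 (ENSMUSG00000018774) was 80.87, 65.90 and 73.81 FPKM in MWA+PBS and 11.86, 12.05 and 12.77 FPKM in MWA+2DG. The lowest MWA+PBS sample was 5.16 times the highest MWA+2DG sample. Its log2FC was -2.49 (SE 0.0792, limma adjusted p = 9.84e-07).

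Lyz2 encodes lysozyme M, an enzyme that cuts bacterial cell walls and is made by macrophages, monocytes and neutrophils. Lyz2 (ENSMUSG00000069516) was 169.26, 183.59 and 159.49 FPKM in MWA+PBS and 231.02, 210.20 and 240.23 FPKM in MWA+2DG. The lowest MWA+2DG sample was 1.14 times the highest MWA+PBS sample, the smallest gap between groups among the 9 genes. Means were 170.8 ± 12.1 and 227.2 ± 15.4 FPKM (n = 3 each), a log2FC of 0.41 (SE 0.0755, limma adjusted p = 0.00449), which turned to -0.07 with an adjusted p of 0.36 when FPKM was scaled to T lineage genes. Lyz2 was the highest of the 9 genes in both groups, at rank 163 of all genes without 2DG and rank 113 with it.

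Set against Csf1r in the same sample, Lyz2 was 2.54 ± 0.392 times as high in MWA+PBS against 21.5 ± 1.62 times as high in MWA+2DG. This ratio does not depend on the scaling of a sample. On the scale log2((Lyz2 + 1)/(Csf1r + 1)) the groups differed by 2.98, from 1.32 ± 0.21 to 4.30 ± 0.11, and did not overlap. An exact two-sided permutation test gave p = 0.10, the smallest that 3 samples against 3 allow. Csf1r itself had a log2FC of -2.57, so a gene with no change would also separate the groups in this ratio. The test therefore cannot single out Lyz2. The ratio was chosen with earlier results of these data known. Of 7 other lysozyme and LAMP family genes, 3 were tested, 2 were lower and 0 were higher, with a median log2FC of -0.73. Lamp1, a lysosomal membrane protein of nearly all cells, fell from 98.0 ± 2.49 to 52.5 ± 1.06 FPKM, and Lamp2 had a log2FC of -0.73 (limma adjusted p = 0.000117). Cd63, a tetraspanin of lysosomes, had one of -0.49 (limma adjusted p = 0.068), and passed with median ratio scaling (limma adjusted p = 0.046) and T lineage scaling (limma adjusted p = 0.00307). Lyz1, a close copy of Lyz2 made mainly in intestinal Paneth cells, was under the filter at 0.190 ± 0.0985 and 0.430 ± 0.460 FPKM, and the division of reads between the copies is uncertain.

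Fcgr1 encodes CD64, the high-affinity receptor for IgG. Fcgr1 (ENSMUSG00000015947) was 3.38, 2.97 and 3.07 FPKM in MWA+PBS and 0.57, 0.67 and 0.82 FPKM in MWA+2DG. It was the lowest of the 9 genes in both groups. Only its MWA+PBS level carried it past the filter of a mean FPKM of at least 1. The log2FC was -1.30 (SE 0.0961, limma adjusted p = 5.59e-05) with a pseudocount of 1 and -2.05 with 0.1, while the mean FPKM was 4.57-fold lower.

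Other Fc receptor genes mostly fell: of 8 listed, 7 were tested, 6 were lower and 1 was higher, with a median log2FC of -1.32. Fcer1g, the signaling chain shared by Fc receptors, fell from 29.8 ± 1.92 to 8.19 ± 1.49 FPKM. Fcgr3 and Fcgr4, activating IgG receptors of myeloid cells, had log2FCs of -1.40 (limma adjusted p = 6.56e-05) and -1.45 (limma adjusted p = 6.24e-06). Fcgrt, the neonatal Fc receptor that recycles IgG, fell from 27.4 ± 1.59 to 10.4 ± 0.452 FPKM. The gene that was higher, Fcer2a, is the CD23 receptor of B cells, and was 0.05, 0.05 and 0 FPKM in MWA+PBS against 3.09, 3.64 and 3.71 in MWA+2DG. Its MWA+2DG level alone carried it past the filter. It was named after its values were seen. The 7 B cell markers, all higher after 2DG, summed to 9.42 to 10.5 FPKM in MWA+PBS against 48.5 to 53.2 FPKM in MWA+2DG, and their part in this result was not tested.

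Mrc1 encodes the mannose receptor CD206, a lectin that takes up mannose-bearing glycoproteins. Mrc1 (ENSMUSG00000026712) was 47.46, 46.42 and 47.82 FPKM in MWA+PBS and 6.38, 5.99 and 6.42 FPKM in MWA+2DG. Its samples were tight within each group, and the fall was the largest of the 9 genes. The means were 47.2 ± 0.727 and 6.26 ± 0.238 FPKM, a log2FC of -2.73 (SE 0.0516, limma adjusted p = 1.67e-07), with ratios of 7.23 to 7.98 between any MWA+PBS sample and any MWA+2DG sample.

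Marco encodes a scavenger receptor that binds bacteria, best known on marginal zone macrophages. Marco (ENSMUSG00000026390) was 4.21, 3.92 and 4.05 FPKM in MWA+PBS and 1.59, 1.21 and 0.98 FPKM in MWA+2DG. Its fall was the smallest of the 8, and its MWA+2DG samples were the most uneven relative to their mean. The log2FC was -1.17 (SE 0.11, limma adjusted p = 0.000176).

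Of 23 other scavenger and lectin receptor genes, 21 were listed in the files, 11 were tested, 10 were lower and 0 were higher, with a median log2FC of -1.19. Cd5l, a secreted scavenger protein made by tissue macrophages, fell from 54.4 ± 2.19 to 8.16 ± 0.893 FPKM. Clec4n, the lectin Dectin-2, fell from 29.8 ± 3.81 to 5.42 ± 0.821 FPKM. Lgals3, the galactose-binding lectin galectin-3, fell less, from 19.1 ± 1.94 to 10.7 ± 0.875 FPKM, and Scarb2, a lysosomal membrane protein of many cell types, had a log2FC of -0.26 (limma adjusted p = 0.00848). The gene that was tested and did not pass was Scarf1, at a log2FC of -0.28 (limma adjusted p = 0.069), and it passed with median ratio scaling (limma adjusted p = 0.0471) and T lineage scaling (limma adjusted p = 0.00234). It was named after its values were seen.

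Sirpa encodes SIRPα, a myeloid receptor that binds CD47 and restrains phagocytosis. Sirpa (ENSMUSG00000037902) was 43.34, 38.62 and 45.30 FPKM in MWA+PBS and 8.23, 8.61 and 8.24 FPKM in MWA+2DG. The log2FC was -2.21 (SE 0.0688, limma adjusted p = 8.81e-07), a 5.07-fold fall that lay between those of Cd68 and Maf on the log2 scale. Of 8 listed genes that act with it or are related to it, 4 were tested, 1 was lower and 1 was higher, though 3 were lower and 0 were higher with T lineage scaling. The median log2FC of the 4 was -0.14. Sirpb1a, Sirpb1b, Sirpb1c and Thbs1 were under the filter, at no more than 1.34 FPKM in any sample, and for each the MWA+2DG samples all lay below the MWA+PBS samples. Cd47, the ligand, present on nearly all cells, rose from 36.1 ± 1.91 to 44.3 ± 4.69 FPKM (log2FC 0.28, limma adjusted p = 0.0285), but did not pass with median ratio scaling (0.23, limma adjusted p = 0.084) and was at -0.18 with T lineage scaling (limma adjusted p = 0.15). Skap2, an adaptor that binds SIRPα, fell from 3.70 ± 0.214 to 2.01 ± 0.131 FPKM. The phosphatase genes Ptpn6 (SHP-1) and Ptpn11 (SHP-2) had log2FCs of -0.14 (limma adjusted p = 0.24) and -0.13 (limma adjusted p = 0.13).

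Maf, the gene for c-Maf, was the transcription factor of the 9. Maf (ENSMUSG00000055435) was 10.28, 9.19 and 9.91 FPKM in MWA+PBS and 2.36, 3.00 and 2.37 FPKM in MWA+2DG. The lowest MWA+PBS sample was 3.06 times the highest MWA+2DG sample. Means were 9.79 ± 0.554 and 2.58 ± 0.367 FPKM, a log2FC of -1.60 (SE 0.0889, limma adjusted p = 1.35e-05). In GENCODE M21 its exons share bases with the antisense gene Gm15655, for which the files list no value.

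The small MAF factors lack an activation domain and pair with other factors. Mafg fell from 6.07 ± 0.660 to 4.73 ± 0.306 FPKM, a log2FC of -0.30 (limma adjusted p = 0.0295) that did not pass with TPM scaling (limma adjusted p = 0.053). Mafk was at 11.1 ± 0.36 and 10.6 ± 1.03 FPKM (limma adjusted p = 0.56). Maff was under the filter at 0.687 ± 0.0850 and 0.310 ± 0.0854 FPKM. Mafa, a pancreatic factor, was at 0.0467 ± 0.0208 and 0.0633 ± 0.0777 FPKM, and Nrl, a retinal factor, was listed at 0 in all 6 samples.

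Over the 12 other MAF factors and partners, 8 were tested, 4 were lower and 0 were higher, with a median log2FC of -0.16, while TPM scaling gave 2 lower and T lineage scaling 8 lower. Nfe2l1, a partner of small MAF proteins in stress responses, had a log2FC of -0.26 (limma adjusted p = 0.0332) that did not pass with TPM scaling (limma adjusted p = 0.08), and Nfe2l2, the oxidative stress factor NRF2, one of -0.07 (limma adjusted p = 0.49). Of 17 transcription factor genes of macrophages, 13 were tested, 11 were lower and 1 was higher, with a median of -1.24, while T lineage scaling gave 12 lower and 0 higher. Of the 11, Cebpa, Pparg and Tfec passed the filter only through their MWA+PBS level, with MWA+2DG means of 0.700, 0.890 and 0.387 FPKM. Spi1, which encodes PU.1, the main myeloid factor, fell from 10.4 ± 0.436 to 4.87 ± 0.370 FPKM, and Spic, the factor of red pulp macrophages, from 13.4 ± 1.12 to 2.92 ± 0.427 FPKM. Irf8 and Irf5, interferon regulatory factor genes of myeloid and B cells, had log2FCs of -1.10 (limma adjusted p = 1.19e-05) and -1.38 (limma adjusted p = 4.96e-05). The gene that was higher, Id3, an inhibitor of E proteins found in naive and memory T cells, rose from 2.94 ± 0.382 to 4.85 ± 0.560 FPKM, but was at 0.19 (limma adjusted p = 0.12) with T lineage scaling. It was named after its values were seen.

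Of 12 genes tied to c-Maf in T cells, 8 were tested, 1 was lower and 3 were higher, with a median log2FC of 0.28, which went to 1 lower, 1 higher and a median of -0.06 with T lineage scaling. Cxcr5, the chemokine receptor that leads lymphocytes to B cell follicles, rose from 2.48 ± 0.375 to 6.85 ± 0.621 FPKM. B cells carry it too, and the part of B cell RNA in its level was not tested. Lag3, a coinhibitory receptor, fell from 5.10 ± 0.782 to 3.42 ± 0.411 FPKM. Icos, a costimulatory receptor, and Tigit, a coinhibitory one, had log2FCs of 0.26 (limma adjusted p = 0.059) and 0.30 (limma adjusted p = 0.062), which passed with TPM scaling and turned negative without passing with T lineage scaling. The cytokine genes Il10, Il21, Il4 and Il17a were under the filter.

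**Figure D2:**
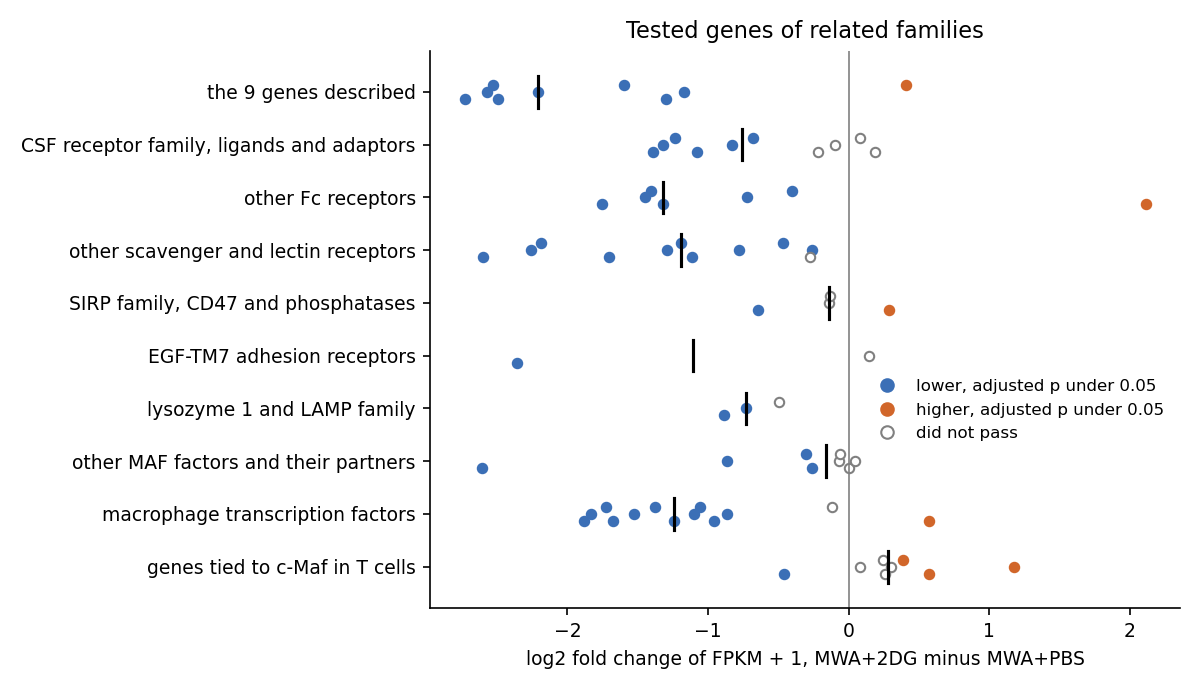
Log2 fold change of FPKM + 1 (MWA+2DG minus MWA+PBS) for the tested genes of each family, with the 9 genes on the top line. Filled points passed at an adjusted p under 0.05, open points did not, and black bars are medians; the bar of the 9 genes is at -2.21 and that of the genes tied to c-Maf in T cells at 0.28 (-0.06 with T lineage scaling).

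The order of levels, which FPKM allows between genes because it is scaled per length, was nearly the same in both groups. In MWA+PBS it ran Lyz2, Cd68, Csf1r, Mrc1, Sirpa, Adgre1, Maf, Marco and Fcgr1. Only Cd68 and Csf1r overlapped between samples there. In MWA+2DG the order differed by a swap of Mrc1 and Sirpa, and no neighbours overlapped. Without Lyz2, the other 8 genes summed to 293.6, 260.1 and 284.5 FPKM in MWA+PBS against 45.8, 46.8 and 46.9 FPKM in MWA+2DG. That was 0.0830% to 0.0953% of all FPKM in MWA+PBS against 0.0151% to 0.0161% in MWA+2DG.

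**Figure D3:**
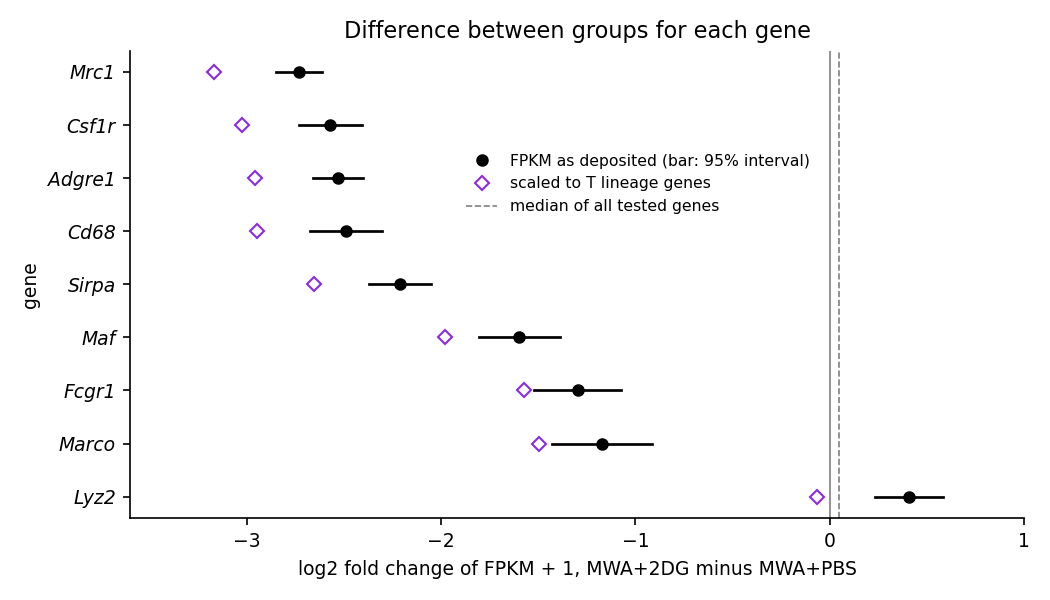
Log2 fold change of FPKM + 1 (MWA+2DG minus MWA+PBS) of each gene, as deposited (black points with 95% intervals) and after scaling to T lineage genes (open diamonds). Mrc1 is lowest at -2.73 and Lyz2 highest at 0.41; the scaling moved each gene down and put Lyz2 at -0.07, while the dashed line marks the median of all tested genes, 0.05.

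The falls were compared with those of red pulp macrophage markers. The 12 markers (Spic, Vcam1, Hmox1, Slc40a1, Cd163, Itgad, Axl, Mertk, C1qa, C1qb, C1qc and Cd5l) were all lower, with a median log2FC of -2.62. Their geometric mean was 52.9, 50.5 and 51.0 FPKM in MWA+PBS and 8.17, 7.42 and 8.01 FPKM in MWA+2DG. The ratio of each of the 9 genes to this mean was chosen after the values were known and is given as a description. Csf1r, Adgre1 and Cd68 kept their place among these markers to within the spread of the samples: their log2 ratios differed between groups by 0.03, -0.06 and 0.13, and the samples of the groups overlapped. For the other 6 genes the groups did not overlap (exact permutation p = 0.10 each, the smallest possible, and 0.15 adjusted over the 9 ratios). The share of all tested genes whose ratio to the markers separates the groups was not computed. Mrc1 was lower relative to the markers after 2DG, by -0.20. Sirpa was higher by 0.37, Fcgr1 by 0.50, Maf by 0.78 and Marco by 0.99. Lyz2 was higher by 3.12, with a log2FC of its own of 0.41 (-0.07 with T lineage scaling). Since the markers had a median log2FC of -2.62, a gene with no change would also be higher relative to them.

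**Figure D4:**
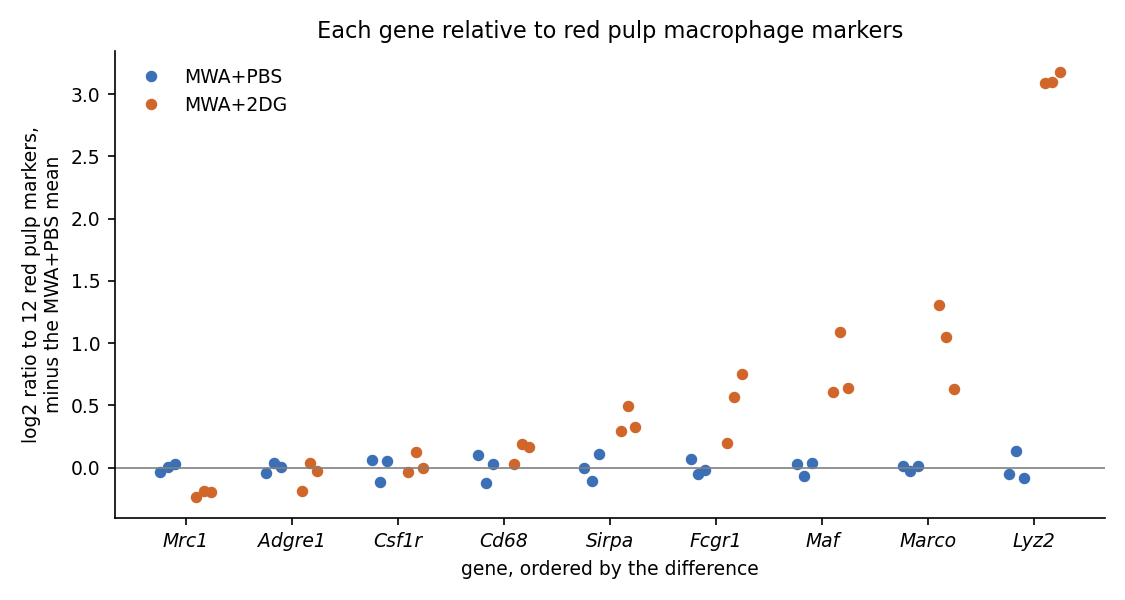
Log2 ratio of each gene's FPKM to the geometric mean of 12 red pulp macrophage markers in the same sample, minus the MWA+PBS mean of that gene. Points are samples. The groups overlap for Adgre1, Csf1r and Cd68, Mrc1 is lower in MWA+2DG, and Lyz2 is higher by 3.12. The markers themselves were lower in MWA+2DG, so a gene with no change would also be higher.

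Genes whose profile over the 6 samples lay nearest were found by the root mean square distance of log2(FPKM + 1), each gene centred on its own mean. For Csf1r they were Abcc3, a transporter (distance 0.040), Axl, a receptor for apoptotic cells and a red pulp marker above (0.044), and Kcnj10, a potassium channel (0.054). Cd68 came next, and Adgre1 was at rank 12, Mrc1 at 16, Sirpa at 32, Maf at 161, Fcgr1 at 276, Marco at 349 and Lyz2 at 10817 of the tested genes. For Maf the nearest were Paqr9 (0.040), Rims3 (0.054) and the lysosomal phospholipase gene Pla2g15 (0.069). For Lyz2 they were Cfap36 (0.012), the mRNA export gene Nxf1 (0.019) and the peptidase gene Apeh (0.022). With 3 samples a group, such distances mostly reflect the size of the difference between groups on this scale, on which low genes change less. In mean FPKM, Paqr9 fell 9.38-fold and Maf 3.80-fold.

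Markers of other cells that a spleen suspension could hold were summed in each sample over every listed gene, tested or not, and the lists differed in direction. The cell label held for T cells: all 14 T lineage markers were present and, in FPKM as deposited, higher after 2DG, summing to 1612 to 1697 FPKM in MWA+PBS against 2277 to 2434 FPKM in MWA+2DG. Red pulp markers summed to 853 to 914 FPKM in MWA+PBS against 120 to 130 FPKM in MWA+2DG. Of 5 marginal zone macrophage markers 3 were tested and all 3 were lower. The 5 summed to 17.3 to 19.8 FPKM in MWA+PBS against 4.99 to 5.47 FPKM in MWA+2DG, with the defining genes Cd209b and Cd209d near 0 in both groups.

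The other makers of lysozyme M moved differently. All but 1 of the 11 neutrophil markers were higher, with a median log2FC of 4.10 and sums of 65.7 to 89.5 FPKM in MWA+PBS and 1549 to 1724 FPKM in MWA+2DG. Csf3r was the exception, and was lower with T lineage scaling (limma adjusted p = 0.0461). The 8 monocyte markers were split, 3 lower and 3 higher (5 and 2 with T lineage scaling), with a median of 0.00 and sums of 149 to 155 FPKM and 152 to 165 FPKM. The part of neutrophil and monocyte RNA in the level of Lyz2 was not tested, nor that of red pulp macrophage RNA in the fall of the other 8 genes.

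Lists of further cells were also summed, and their part in the 9 genes was not tested. Of 6 erythroid markers 5 were tested and all 5 were lower, and the 6 summed to 188 to 221 FPKM in MWA+PBS against 41.5 to 55.5 FPKM in MWA+2DG. The 3 tested dendritic cell markers of 8 were lower, and the 8 summed to 18.4 to 20.4 FPKM against 11.1 to 11.8 FPKM. The 3 tested platelet markers of 4 were lower, and the 4 summed to 13.3 to 17 FPKM against 4.63 to 7.67 FPKM. Of the 3 plasma cell markers 2 were tested and 1 was lower, and the 3 summed to 60.6 to 67.3 FPKM against 26.5 to 28.5 FPKM. The only tested natural killer cell marker, Ncr1, was lower at a log2FC of -0.35, and the 3 listed in the files summed to 7.01 to 8.09 FPKM against 5.62 to 5.96 FPKM.

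**Figure D5:**
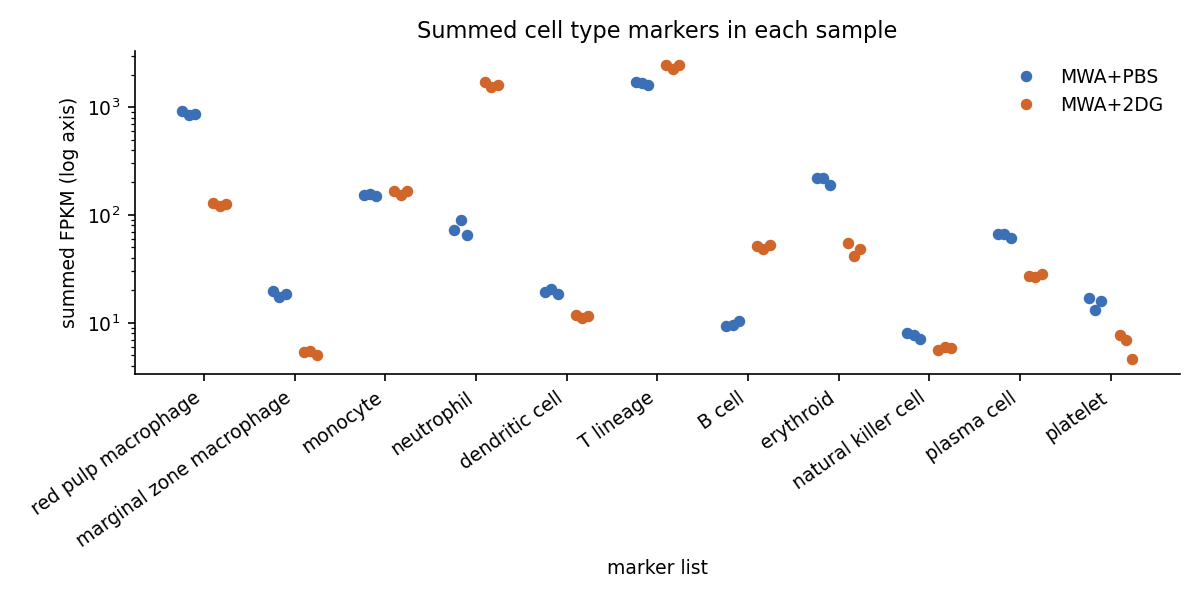
Summed FPKM of each cell type marker list in each sample, on a log axis; points are samples of MWA+PBS and MWA+2DG. Red pulp macrophage sums fall from between 853 and 914 to between 120 and 130, while neutrophil sums rise to between 1549 and 1724 and monocyte sums overlap.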

How the data were processed

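Bulk RNA-seq of splenic CD8+ T cells (3 MWA+PBS and 3 MWA+2DG samples, grouped by their GEO labels) was used. Libraries were poly(A)-selected and dUTP-marked for strand, and their adapters held molecular identifiers. According to the methods, the authors ran fastp for read quality and HISAT2 for mapping, and computed the deposited FPKM values with StringTie and ballgown. The submitters' processing notes also name cutadapt 1.9, HISAT2 2.0.4, UMI-tools, StringTie 1.3.4d and build mm9, with no role or order. Use of strand and of identifiers in quantification is not stated. Since FPKM is divided by library size, a rise of abundant genes lowers the FPKM of others. The files hold 2 decimals and no counts, so depth is unknown and counting error cannot be given.

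Of 28773 gene IDs, 28689 were given symbols from GENCODE M21. Each sample had 22414 to 23340 genes above 0. Genes with a mean FPKM of at least 1 over the 6 samples were fitted with limma 3.58.1 in R 4.3.3 (lmFit, eBayes with a trend, two-sided, no covariates) on log2(FPKM + 1), a scale on which low genes change less. Some listed genes passed this filter only through the group in which they were higher, so counts and medians over lists are descriptions. This procedure was tested on simulated data. The 9 genes and all lists were chosen with earlier results of these data known. Named genes were the 9, up to 4 genes per list with the highest mean FPKM, every MAF factor, Lyz1 and the 3 nearest profiles of Csf1r, Lyz2 and Maf. A gene that this rule names is not reported here. Others are named where a result turned on them: Csf1, Csf3r, Fcer2a, Scarf1, Id3, genes under the filter, genes that passed it only through their higher group, and marker genes. Alternatives were other pseudocounts, filters, scalings (TPM, median ratio, quantile, T lineage genes), fits and thresholds, and leaving out each sample.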

Additional observations from a re-analysis of the deposited data

How the results depend on the processing

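Over the 9 genes, 132 of 133 comparisons of a gene with an alternative fit kept their direction and stayed on their side of an adjusted p of 0.05. The exception was Lyz2, at -0.066 on the log2 scale (limma adjusted p = 0.36) with FPKM scaled to T lineage genes, which left 0 of the 9 genes higher. That scaling moved the median of all genes from 0.05 to -0.36. With a log2 fold change beyond 1 required, 0 of the 9 were higher, since Lyz2 was at 0.41. Over all tested genes, a mean FPKM of at least 5 tested 7313 genes and gave 1164 lower and 1787 higher, T lineage scaling gave 8115 lower and 519 higher, and a log2 fold change beyond 1 gave 478 lower and 144 higher. Leaving out each sample in turn kept every call on the 9 genes, with Lyz2 between 0.36 and 0.46 (limma adjusted p from 0.00382 to 0.0201). The log2 ratio of Lyz2 to Csf1r was then between 2.92 and 3.10. Fcgr1 and Marco had no value at a mean FPKM of at least 5. No paired analysis was possible because replicate numbers 1 to 3 and 4 to 6 differ between the groups. With no counts, sampling noise at the low levels of Fcgr1 and Marco cannot be given.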
